A study of Mus musculus with 9 samples.

Results

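Genes of lipid hydrolysis in the lysosome and of lipid export from it were followed in RAW 264.7 cells, a macrophage-like cell line of mouse, after loading with emulsion particles. They were *Lipa*, *Pla2g15*, *Smpd1* and *Asah1* (hydrolases), *Psap* and *Gm2a* (activator proteins), and *Npc1*, *Npc2* and *Stard3* (sterol and lipid export), matched by mouse symbol, which makes 9 of the 54432 genes in the table. All 9 were among the 12637 genes tested, with at least 705 estimated counts in every library.

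Particles that enter a cell by endocytosis reach the lysosome, where lysosomal acid lipase cleaves triglycerides and cholesteryl esters, phospholipase A2 group XV cleaves phospholipids, and acid sphingomyelinase and acid ceramidase take sphingolipids apart. Small activator proteins lift glycolipids out of the membrane for their enzymes. Cholesterol leaves the lysosome through the soluble carrier NPC2 and the membrane protein NPC1, and STARD3 bridges late endosomes and the endoplasmic reticulum (ER). Macrophages use this route when they take up lipoproteins, and a loss of lysosomal acid lipase, NPC1 or NPC2 in people causes lysosomal storage disease.

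RNAseq was performed on 3 groups with 3 libraries each, in medium with fetal bovine serum: untreated control cells, and cells that received either very low-density lipoprotein (VLDL)-sized or chylomicron (CHYL)-sized particles at 1 mM for 6 hours. Both particles were made from sunflower oil with sodium caseinate as emulsifier, so effects of the lipid and of the emulsifier against untreated cells cannot be told apart. Each library held a pool of the samples of 1 condition from 1 experiment in this single cell line. Depth was almost equal, with 22393893 to 22856792 estimated counts per library. The 8 macrophage markers were all present, at a summed 6280 to 6520 cpm (counts scaled for depth) in control, 5390 to 5720 after VLDL-sized and 5560 to 5890 after CHYL-sized particles. These sums were scaled by library size alone, whereas all other cpm given here are also TMM-normalized. The 4 epithelial markers had 0 counts in all 9 libraries and no T or B cell marker exceeded 2 counts. Of 5 fibroblast and 3 neutrophil markers, *Pdgfra* and *S100a8* alone exceeded 10 counts, at 55 counts or fewer. In each group the library of replicate 3 stood apart from the other two, and values without these libraries are given where a call among the 9 genes depends on them.

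Of the 9 genes, *Lipa*, *Npc1* and *Psap* were higher after VLDL-sized particles at an adjusted p under 0.05, and none was lower (limma-voom with Benjamini-Hochberg adjustment over all genes tested). Of all genes tested, 35.6% passed, 17.8% higher and 17.9% lower. *Lipa*, *Npc1* and *Psap* were also the genes that passed after CHYL-sized particles, where 25.7% of all genes passed, 12.7% higher and 13% lower. A count of 3 in 9 is therefore near the background. With the replicate number as a block in the VLDL-sized comparison, *Stard3* and *Pla2g15* also passed, both lower, which makes 5 of 9 beside 47.9% of all genes. The median log2 fold change of the 9 genes was 0.03 after VLDL-sized and -0.01 after CHYL-sized particles, beside medians of -0.0005 and 0.0011 over all genes tested. The libraries of particle-treated and control cells did not overlap for 4 of the 9 genes with VLDL-sized particles (47.4% of all genes) and for 3 with CHYL-sized particles (41.7% of all genes). Both comparisons used the same 3 control libraries. In a bulk sample, fewer cells that express a gene and less RNA per cell cannot be told apart.

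**Figure D1:**
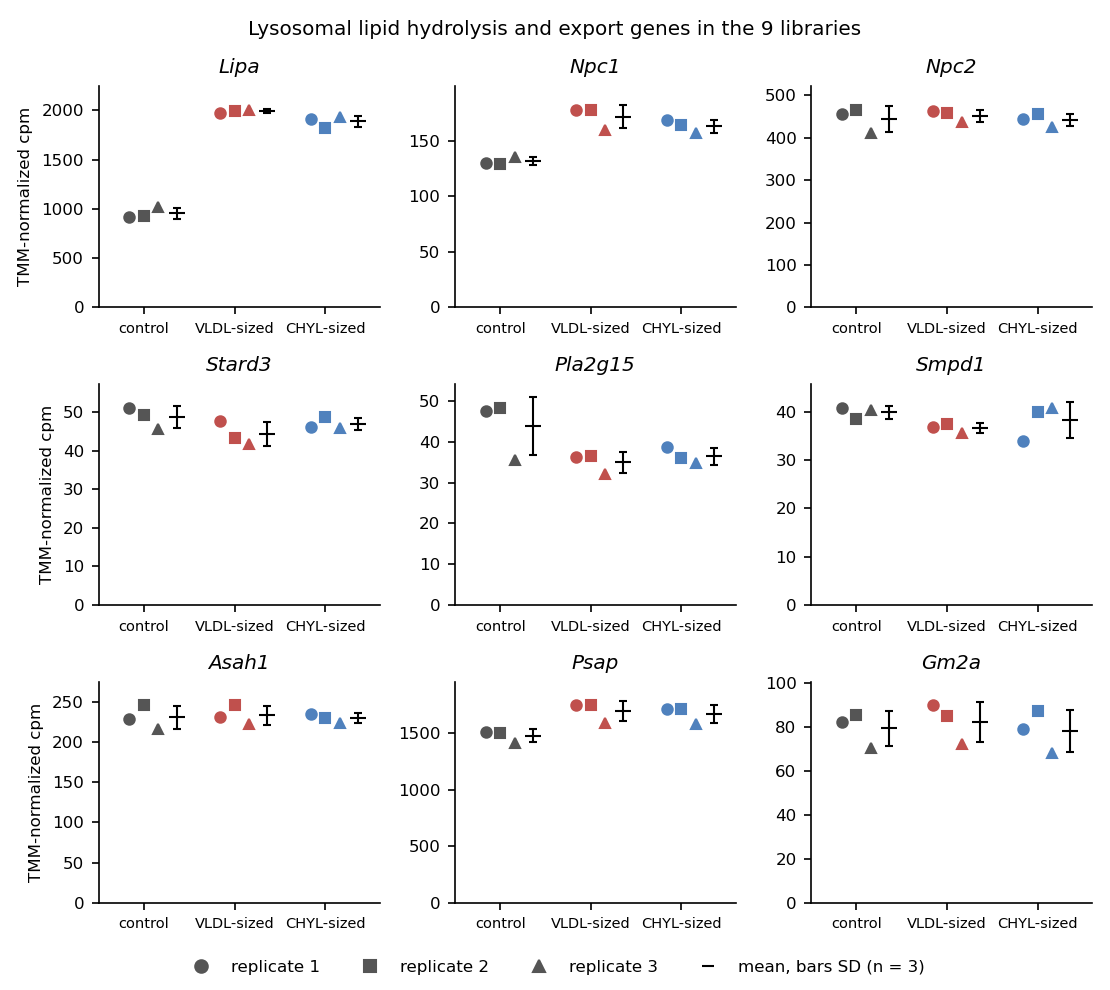
Level of each of the 9 genes in the 9 libraries, in cpm after TMM normalization (vertical axis from 0), by group, with marker shapes for the replicate number and black bars for the mean and SD of 3 libraries. All 6 particle-treated libraries lie above all 3 control libraries for *Lipa*, *Npc1* and *Psap*, whereas the groups overlap in at least 1 comparison for the other 6 genes.

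*Lipa* (ENSMUSG00000024781, chromosome 19 from 34492318 to 34527474, minus strand, GRCm38) encodes lysosomal acid lipase, the enzyme for triglycerides and cholesteryl esters at acid pH. It had the largest rise of the 9 genes. Its level was 915, 929 and 1019 cpm in the control libraries, 1972, 1998 and 2007 cpm after VLDL-sized particles and 1914, 1825 and 1929.7 cpm after CHYL-sized particles. The lowest treated library was thus well above the highest control library, and both treated groups were narrow. The mean rose from 954 ± 56.5 to 1992 ± 18.0 cpm after VLDL-sized particles (SD, n = 3), or 1.06 on the log2 scale (standard error 0.05, adjusted p = 2.16e-07, limma-voom). This was a 2.09-fold rise with a 95% interval of 1.93 to 2.26. After CHYL-sized particles the mean was 1889.6 ± 56.7 cpm, a 1.98-fold rise with an interval of 1.83 to 2.14 (adjusted p = 4.92e-07). By fold change *Lipa* was number 323 from the top of the 12637 genes with VLDL-sized and number 285 with CHYL-sized particles. It passed under all 21 alternative settings in both comparisons, with log2 fold changes of 0.97 to 1.11 and of 0.91 to 1.04.

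The stretch upstream of the *Lipa* start is shown because *Lipa* moved most, and it was searched on both strands for 4 short motifs (RefSeq, GRCm38.p6, chr19:34527475-34527724, minus strand, 250 bases, read toward the start).
Lipa: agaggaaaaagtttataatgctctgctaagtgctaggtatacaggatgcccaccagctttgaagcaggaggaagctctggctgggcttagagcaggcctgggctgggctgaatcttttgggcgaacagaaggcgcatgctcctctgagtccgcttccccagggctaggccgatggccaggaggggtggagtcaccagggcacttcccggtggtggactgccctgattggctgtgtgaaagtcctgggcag
The motifs were the E-box CACGTG to which TFEB family factors bind, the longer form TCACGTGA of that box found in many lysosomal gene promoters (which contains it), the antioxidant response element core TGACNNNGC, and the FOXO element GTAAACA. None of these letters occurred in the *Lipa* window from 250 bases before to 50 bases after the start, which says nothing of sites elsewhere. Of the 32851 RefSeq windows of that length, 7.15% held the E-box, 0.974% the longer form, 12.4% the antioxidant response element core and 3.65% the FOXO element. Windows were matched for 7 of the 9 genes (8 windows, since *Psap* had 2), and 0 of the 7 genes held an E-box.

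*Lipa* was also expressed against the mean of the other 8 genes of the same library, which removes any scaling between libraries. By this measure *Lipa* gained about as much as on the cpm scale. Against the median of those 8 genes it gained less, with the values given at the end. The log2 cpm of *Lipa* minus the mean log2 cpm of the other 8 was 2.68, 2.70 and 2.98 in control, 3.77, 3.803 and 3.94 after VLDL-sized and 3.78, 3.67 and 3.85 after CHYL-sized particles. Control and treated libraries did not overlap, while the treated groups overlapped each other. The difference from control was 1.05 for VLDL-sized and 0.98 for CHYL-sized particles, each with p = 0.1 in an exact two-sided permutation test, the smallest p that 3 against 3 libraries can give (adjusted over 4 tests, 0.133). With both particles together, 6 libraries against 3, the difference was 1.01 (exact permutation p = 0.0238, adjusted 0.0952). VLDL-sized and CHYL-sized particles differed by 0.07 (exact permutation p = 0.5).

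*Pla2g15* (ENSMUSG00000031903, chromosome 8 from 106150399 to 106164715, plus strand) encodes the lysosomal phospholipase A2 of group XV. It had the lowest fold change of the 9 genes in both comparisons. Its level was 47.7, 48.4 and 35.6 cpm in the control libraries, 36.3, 36.6 and 32.1 cpm after VLDL-sized and 38.6, 35.96 and 34.7 cpm after CHYL-sized particles. The control library of replicate 3 lay among the treated libraries, while the other two control libraries lay above all treated ones. The log2 fold change after VLDL-sized particles was -0.32 (standard error 0.11) and just missed the threshold (adjusted p = 0.0509, limma-voom). With the replicate number as a block the adjusted p was 0.0018. Without the 3 libraries of replicate 3 the log2 fold change was -0.40 (adjusted p = 0.000118), with 42.6% of all genes passing. Without the control library of replicate 3 alone it was -0.46 (adjusted p = 0.00107). In all, *Pla2g15* passed under 9 of the 21 alternatives with VLDL-sized particles, always lower. With CHYL-sized particles its log2 fold change was -0.26 (adjusted p = 0.124), and it passed under 3 of 21. These 3 included the fit without the control library of replicate 3, which gave -0.40 (adjusted p = 0.00352), and the fit without all 3 libraries of replicate 3, which gave -0.37 (adjusted p = 0.000352).

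Acid sphingomyelinase and acid ceramidase, which act one after the other on sphingomyelin, did not pass in either comparison. *Smpd1*, the sphingomyelinase gene, was at 40.9, 38.4 and 40.4 cpm in the control libraries, 36.8, 37.6 and 35.6 cpm after VLDL-sized and 34.02, 39.9 and 40.9 cpm after CHYL-sized particles. The VLDL-sized libraries lay just under the control libraries, whereas the CHYL-sized libraries spanned them. Its log2 fold change was -0.12 (95% interval -0.28 to 0.04, adjusted p = 0.227) with VLDL-sized and -0.06 (adjusted p = 0.568) with CHYL-sized particles. *Asah1*, the ceramidase gene, was at 229, 245 and 216 cpm in the control libraries, 231, 245 and 222 cpm after VLDL-sized and 235, 229.7 and 223 cpm after CHYL-sized particles. The 3 groups overlapped, and the intervals of its log2 fold change were -0.11 to 0.14 with VLDL-sized (adjusted p = 0.852) and -0.13 to 0.12 with CHYL-sized particles.

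*Psap* (ENSMUSG00000004207, chromosome 10 from 60277627 to 60302597, plus strand) encodes prosaposin, the precursor that is cut into the saposins. Those peptides assist enzymes that degrade sphingolipids. It was at 1512, 1505 and 1409 cpm in the control libraries, 1745, 1746 and 1589.8 cpm after VLDL-sized and 1713, 1717 and 1577 cpm after CHYL-sized particles. Replicate 3 was the lowest library of each group, and the treated libraries lay above all control libraries. The mean rose from 1475 ± 57.4 to 1694 ± 89.8 cpm with VLDL-sized particles (SD, n = 3), a gain of 14.7% (log2 fold change 0.20, standard error 0.06, adjusted p = 0.0193, limma-voom). With CHYL-sized particles the mean was 1669 ± 79.5 cpm, a gain of 13.1% (log2 fold change 0.18, adjusted p = 0.0419).

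The call of *Psap* depended on the scaling and on the libraries used. It passed under 15 of the 21 alternatives with VLDL-sized and under only 9 of 21 with CHYL-sized particles. Not every loss is listed here. With library size as the only scaling, its log2 fold change was 0.11 with VLDL-sized particles (adjusted p = 0.224) and 0.10 with CHYL-sized particles (adjusted p = 0.292). For VLDL-sized particles the adjusted p was 0.0556 without the control library of replicate 3, 0.0693 without the VLDL-sized library of replicate 1 and 0.0758 without that of replicate 2. For CHYL-sized particles the call was lost without any of the 3 control libraries (adjusted p 0.0732, 0.0769 and 0.107) and without the CHYL-sized library of replicate 1 or of replicate 2 (0.131 each). It was also lost without the VLDL-sized library of replicate 1 (0.0531) or replicate 2 (0.0567), which enter the shared spread alone. *Psap* was higher in every one of these fits.

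The stretch upstream of the first *Psap* start is shown because it held the only motif match among the 8 windows, in capitals (RefSeq, GRCm38.p6, chr10:60277378-60277627, plus strand, 250 bases, read toward the start).
Psap: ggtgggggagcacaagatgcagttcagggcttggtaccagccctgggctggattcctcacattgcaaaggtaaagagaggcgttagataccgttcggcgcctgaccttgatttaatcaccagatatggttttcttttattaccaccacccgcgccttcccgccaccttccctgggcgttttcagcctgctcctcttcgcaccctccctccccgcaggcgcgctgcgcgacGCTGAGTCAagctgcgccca
The capitals are the antioxidant response element core read on the other strand, and begin at position -20 from the start. Since 12.4% of all windows hold this core, a match in 1 of 8 windows is near the background.

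*Gm2a* encodes the GM2 ganglioside activator, which lifts that ganglioside out of the membrane. It was at 82.3, 85.2 and 70.4 cpm in the control libraries, 89.7, 84.8 and 72.0 cpm after VLDL-sized and 78.8, 87.1 and 67.9 cpm after CHYL-sized particles. Replicate 3 was the lowest library in each group and the groups overlapped. Its log2 fold change was 0.05 with VLDL-sized (95% interval -0.19 to 0.29, adjusted p = 0.76) and -0.03 with CHYL-sized particles (interval -0.27 to 0.21, adjusted p = 0.885).

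Among the export genes *Npc1* alone passed. *Npc1* (ENSMUSG00000024413), whose product moves cholesterol through the lysosomal membrane, was at 129, 129 and 136 cpm in the control libraries, 178, 178 and 159 cpm after VLDL-sized and 168, 164 and 157 cpm after CHYL-sized particles. The treated libraries lay above all control libraries, and the treated libraries of replicate 3 were the lowest of their groups while the control library of replicate 3 was the highest of its group. The mean rose from 131 ± 3.68 to 172 ± 10.7 cpm with VLDL-sized particles (SD, n = 3), a 1.31-fold rise with a 95% interval of 1.2 to 1.42 (log2 fold change 0.38, standard error 0.06, adjusted p = 0.000388, limma-voom). With CHYL-sized particles it rose to 163 ± 5.72 cpm, or 1.24-fold with an interval of 1.14 to 1.35 (adjusted p = 0.00231). The call held under all 21 alternatives with VLDL-sized particles and under 19 of 21 with CHYL-sized particles. The exceptions were the fits without the 3 libraries of replicate 1 (adjusted p = 0.0764) or of replicate 2 (adjusted p = 0.0678).

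*Npc2*, the soluble lysosomal cholesterol carrier that hands its cargo to NPC1, did not move with *Npc1*. It was at 456, 466 and 411 cpm in the control libraries, 462, 458 and 436 cpm after VLDL-sized and 445, 456 and 426 cpm after CHYL-sized particles. The groups overlapped and replicate 3 was again the lowest in each. Its log2 fold change was 0.03 with VLDL-sized (95% interval -0.10 to 0.15, adjusted p = 0.759) and -0.01 with CHYL-sized particles (interval -0.13 to 0.12, adjusted p = 0.957).

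*Stard3*, the sterol carrier of late endosomes that contacts the ER, was at 51.2, 49.2 and 45.6 cpm in the control libraries, 47.7, 43.4 and 41.7 cpm after VLDL-sized and 46.2, 48.8 and 45.9 cpm after CHYL-sized particles. The VLDL-sized libraries lay low, but one of them overlapped the control libraries. The log2 fold change was -0.14 (95% interval -0.29 to 0.01, adjusted p = 0.139) with VLDL-sized and -0.05 (adjusted p = 0.64) with CHYL-sized particles. With the replicate number as a block the VLDL-sized value of -0.14 had an adjusted p of 0.0452. With library size as the only scaling, where 38.1% of all genes passed, *Stard3* (-0.23, adjusted p = 0.0316), *Pla2g15* (-0.41, adjusted p = 0.0253) and *Smpd1* (-0.21, adjusted p = 0.0358) were lower after VLDL-sized particles and *Psap* did not pass.

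**Figure D2:**
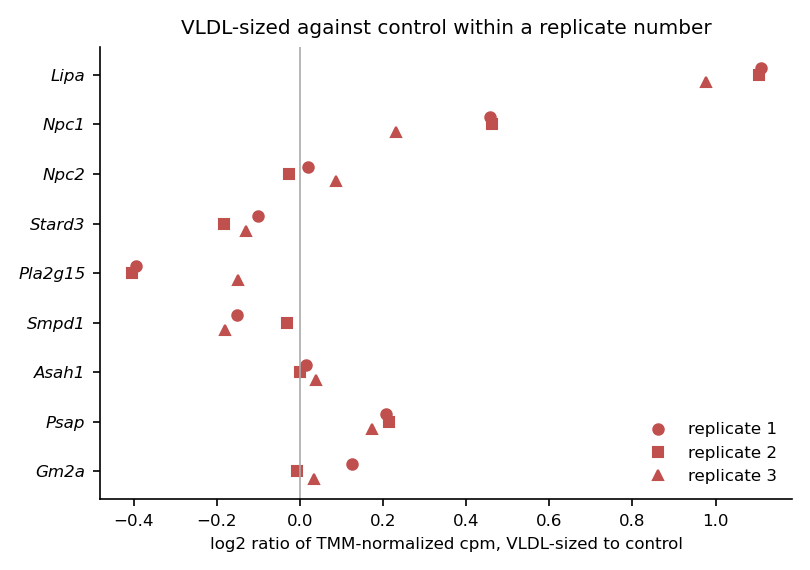
Log2 ratio of cpm between the VLDL-sized and the control library of the same replicate number (horizontal axis, log2) for each of the 9 genes, 1 marker per replicate number. *Lipa*, *Npc1* and *Psap* are above 0 in all 3 pairs, *Stard3*, *Pla2g15* and *Smpd1* are below 0 in all 3, and the ratios of *Lipa*, *Npc1*, *Psap* and *Pla2g15* are nearest to 0 in replicate 3.

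No label says that libraries of the same replicate number belong together. Read pair by pair, as the block does, the log2 ratio of VLDL-sized to control was 1.11, 1.11 and 0.98 for *Lipa* and 0.46, 0.46 and 0.23 for *Npc1* in replicates 1, 2 and 3. For *Psap* it was 0.21, 0.21 and 0.17, so that this small rise was even across the pairs. For *Pla2g15* it was -0.39, -0.41 and -0.15. All 3 pairs of *Stard3* (-0.10, -0.18 and -0.13) and of *Smpd1* (-0.15, -0.03 and -0.18) were below 0. The pairs of *Npc2*, *Asah1* and *Gm2a* had both signs, within -0.03 to 0.12.

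Between the particle sizes none of the 9 genes passed, nor did any other (0% of the 12637 genes, limma-voom). At an unadjusted p under 0.05 there were 812 genes, and 24 genes passed with DESeq2. For *Lipa* the ratio of VLDL-sized to CHYL-sized was 1.05 with a 95% interval of 0.976 to 1.14 (adjusted p = 0.856). For *Npc1* it was 1.05 with an interval of 0.966 to 1.15 (adjusted p = 0.893), and for *Psap* 1.01 with an interval of 0.93 to 1.11. The widest interval on the log2 scale was that of *Pla2g15*, a ratio of 0.959 between 0.802 and 1.15. The interval of *Gm2a* reached highest, to 1.25. On the log2 scale the intervals of *Stard3* and *Smpd1* reached down to -0.24 and -0.22. For *Gm2a*, *Pla2g15*, *Stard3* and *Smpd1* the intervals thus leave room for differences larger in size than the *Psap* rise with VLDL-sized particles. For the other genes, *Lipa*, *Npc1* and *Psap* among them, they end short of that rise, for *Npc1* only just.

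**Figure D3:**
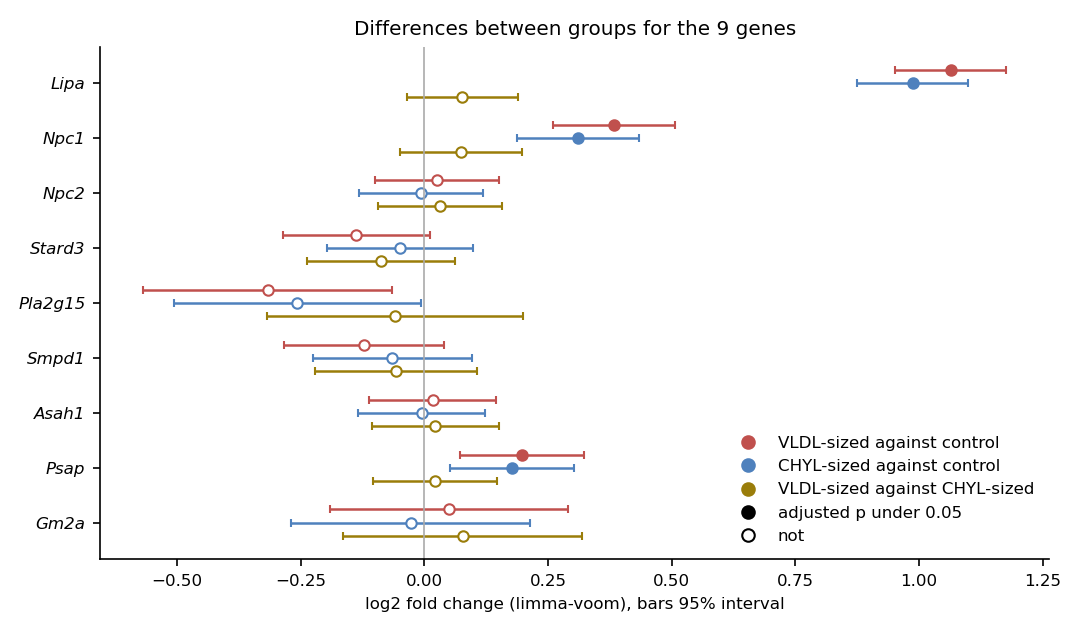
Log2 fold change of the 9 genes in the 3 comparisons (horizontal axis, log2, limma-voom) with 95% intervals, filled where the adjusted p was under 0.05. *Lipa* lies near 1 in both comparisons with control, *Npc1* and *Psap* between 0.18 and 0.38, and all intervals of VLDL-sized against CHYL-sized include 0.

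Levels of different genes were compared as cpm per kilobase of the longest coding transcript. In control cells *Psap* was the most abundant of the 9 at 555 ± 21.6 cpm per kilobase, followed by *Lipa* at 321 ± 19.02, *Npc2* at 135 ± 8.97 and *Asah1* at 83.0 ± 5.24 (SD, n = 3). The other 5 lay far lower, *Npc1* at 25.1 ± 0.704, *Stard3* at 23.5 ± 1.36, *Gm2a* at 19.2 ± 1.90, *Smpd1* at 16.5 ± 0.545 and *Pla2g15* at 16.2 ± 2.67 cpm per kilobase. In that order *Npc1* and *Stard3* overlapped between libraries, as did *Smpd1* and *Pla2g15*, and the other neighbours did not. After VLDL-sized particles *Lipa* reached 671 ± 6.08 cpm per kilobase and all 3 of its libraries lay above those of *Psap* (637 ± 33.8), though by 1.05-fold in the mean. After CHYL-sized particles *Lipa* at 636 ± 19.1 and *Psap* at 628 ± 29.9 cpm per kilobase overlapped. The summed level of the 9 genes was 1195 ± 21.4 cpm per kilobase in control, 1632 ± 43.8 after VLDL-sized and 1583 ± 30.02 after CHYL-sized particles. *Lipa* made up 26.9% of that sum in control and 41.1% after VLDL-sized and 40.2% after CHYL-sized particles. The order depends on the length used: with the median transcript length, 4 of the 9 genes kept their place in control, *Lipa* and *Psap* among them. With that length the CHYL-sized libraries of *Lipa* (844 to 892) and *Psap* (594 to 647 cpm per kilobase) did not overlap.

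**Figure D4:**
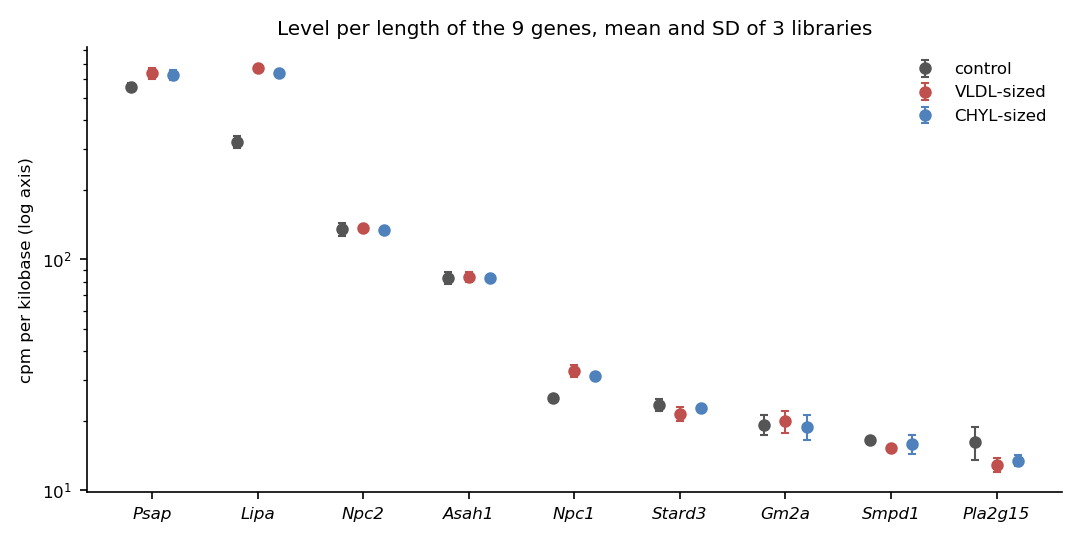
Level of the 9 genes in cpm per kilobase of the longest coding transcript (vertical log axis), mean and SD of 3 libraries per group, ordered by the level in control. *Psap* and *Lipa* stand above the rest, and *Lipa* goes from 321 in control to 671 and 636 after the particles.

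Beside the 9 genes, 15 other lysosomal enzymes that degrade lipids were examined. With VLDL-sized particles 5 of them were higher and 4 lower, with CHYL-sized particles 3 and 3. That is 60% of the list beside 35.6% of all genes with VLDL-sized and 40% beside 25.7% with CHYL-sized particles. Their median log2 fold change was 0.03 and -0.01. The largest rise was that of *Gla*, the alpha-galactosidase that acts on globotriaosylceramide, by 0.67 on the log2 scale (standard error 0.06, adjusted p = 1.32e-05) after VLDL-sized and 0.56 after CHYL-sized particles. *Naaa*, an amidase related to acid ceramidase, fell by 0.60 and 0.47 on the log2 scale (adjusted p = 0.00037 and 0.00243), while *Asah1* itself did not pass. *Pld3*, of the phospholipase D family, rose by 0.26 on the log2 scale after VLDL-sized particles (adjusted p = 0.00579) and had 0.15 after CHYL-sized particles (adjusted p = 0.0792), where it passed without the libraries of replicate 3 (adjusted p = 0.033).

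Of 15 other lysosomal membrane and lipid transfer proteins, 3 were higher and 3 lower with VLDL-sized particles. With CHYL-sized particles 1 was higher and 3 were lower. That is 40% of the list with VLDL-sized and 26.7% with CHYL-sized particles, beside the same 35.6% and 25.7%. With the replicate number as a block, 4 were higher and 5 lower with VLDL-sized particles, where 47.9% of all genes passed. Without the libraries of replicate 3 there were also 4 higher and 5 lower with VLDL-sized particles, where 42.6% of all genes passed. With CHYL-sized particles that fit gave 4 higher and 4 lower, and its share over all genes is not given here. Their median log2 fold change was 0.06 and -0.01. *Scarb2*, a lysosomal membrane protein, rose by 0.25 and 0.24 on the log2 scale (adjusted p = 0.00193 and 0.00342). *Gpr155*, a lysosomal cholesterol sensor, fell from 10.5 ± 0.877 to 4.85 ± 0.287 cpm with VLDL-sized and to 4.85 ± 0.459 cpm with CHYL-sized particles (SD, n = 3), with log2 fold changes of -1.11 in both. *Gramd1b*, an ER protein that takes up cholesterol from the plasma membrane, fell by 0.31 and 0.30 on the log2 scale (adjusted p = 0.00202 and 0.0038). *Osbpl1a*, an oxysterol-binding protein of late endosomes, rose by 0.31 on the log2 scale after VLDL-sized particles (adjusted p = 0.00951) and had 0.20 after CHYL-sized particles (adjusted p = 0.0815), or 0.27 without the libraries of replicate 3 (adjusted p = 0.0264). *Osbpl5* was lower in both comparisons, but rested on 2 to 19 counts per library.

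Neutral lipid hydrolases that work outside the lysosome went both ways. Of 7, 6 were tested (*Mgll* had at most 2 counts), of which 3 were higher and 2 lower with VLDL-sized and 2 higher and 2 lower with CHYL-sized particles. These were 83.3% and 66.7% of the 6, beside 35.6% and 25.7% of all genes. Their median log2 fold change was 0.04 and -0.04. *Pnpla2*, the adipose triglyceride lipase of lipid droplets, rose by 0.53 and 0.37 on the log2 scale (adjusted p = 3.9e-05 and 0.000708). Its coactivator *Abhd5* rose by 0.19 and 0.22 on the log2 scale (adjusted p = 0.0395 and 0.0253), and *Nceh1*, a cholesteryl ester hydrolase of the ER, rose by 0.18 on the log2 scale with VLDL-sized particles (adjusted p = 0.0474) and had 0.11 with CHYL-sized particles (adjusted p = 0.244), where it passed without the libraries of replicate 3 (adjusted p = 0.00629). With library size as the only scaling neither gene passed, *Abhd5* with adjusted p of 0.23 and 0.0973 and *Nceh1* with 0.359 and 0.81. With upper-quartile scaling the adjusted p of *Nceh1* was 0.0528 with VLDL-sized particles. *Lipe*, hormone-sensitive lipase, fell by 0.52 and 0.50 on the log2 scale (adjusted p = 0.00265 and 0.00496). *Daglb*, a diacylglycerol lipase, fell by 0.77 and 0.66 on the log2 scale (adjusted p = 9.26e-05 and 0.000369).

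The transcription factors known to act on lysosomal and lipase genes were not alike. Of the 4 TFEB family members and 2 FOXO factors, 2 were higher and 1 lower in each comparison. That is 50% of the 6, beside 35.6% and 25.7% of all genes. Their median log2 fold change was 0.02 and 0.01. *Tfeb*, whose product switches on many lysosomal genes, fell from 34.3 ± 1.34 to 15.6 ± 2.41 cpm with VLDL-sized (log2 fold change -1.15, adjusted p = 2.45e-05) and to 18.8 ± 2.10 cpm with CHYL-sized particles (-0.87, adjusted p = 0.000195). *Mitf*, of the same family, rose from 31.5 ± 0.395 to 47.6 ± 1.49 and 48.8 ± 1.37 cpm (SD, n = 3, adjusted p = 1.59e-05 and 1.74e-05). *Tfec*, another member, rose from 4, 10 and 8 counts in the control libraries to 38, 28 and 33 counts after VLDL-sized and 37, 27 and 37 counts after CHYL-sized particles (adjusted p = 0.00048 and 0.000752). *Tfe3*, *Foxo1* and *Foxo3* did not pass, with log2 fold changes between -0.12 and 0.11. These are mRNA levels, and the activity or place in the cell of these proteins was not measured here.

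As a check on the loading, 7 genes that are known to react to fatty acids or sterols were read, of which 6 were tested (*Pdk4* had at most 1 count). In each comparison 3 were higher and 2 lower (83.3% of the 6, beside 35.6% and 25.7% of all genes). *Angptl4*, the remaining gene, did not pass, with log2 fold changes of -0.12 and -0.09 (adjusted p = 0.435 and 0.62, limma-voom). *Plin2*, the lipid droplet coat protein, rose from 343 ± 24.4 to 1205 ± 61.9 cpm with VLDL-sized and to 1035 ± 25.8 cpm with CHYL-sized particles (SD, n = 3). *Cpt1a*, of fatty acid oxidation, rose by 1.63 and 1.60 and *Hilpda* by 1.58 and 1.22 on the log2 scale. *Abca1* and *Abcg1*, the sterol efflux transporters, fell by 1.34 and 0.93 on the log2 scale with VLDL-sized and by 1.23 and 0.90 with CHYL-sized particles. *Lipa* and *Npc1* rose in the same libraries in which these transporters were lower.

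**Figure D5:**
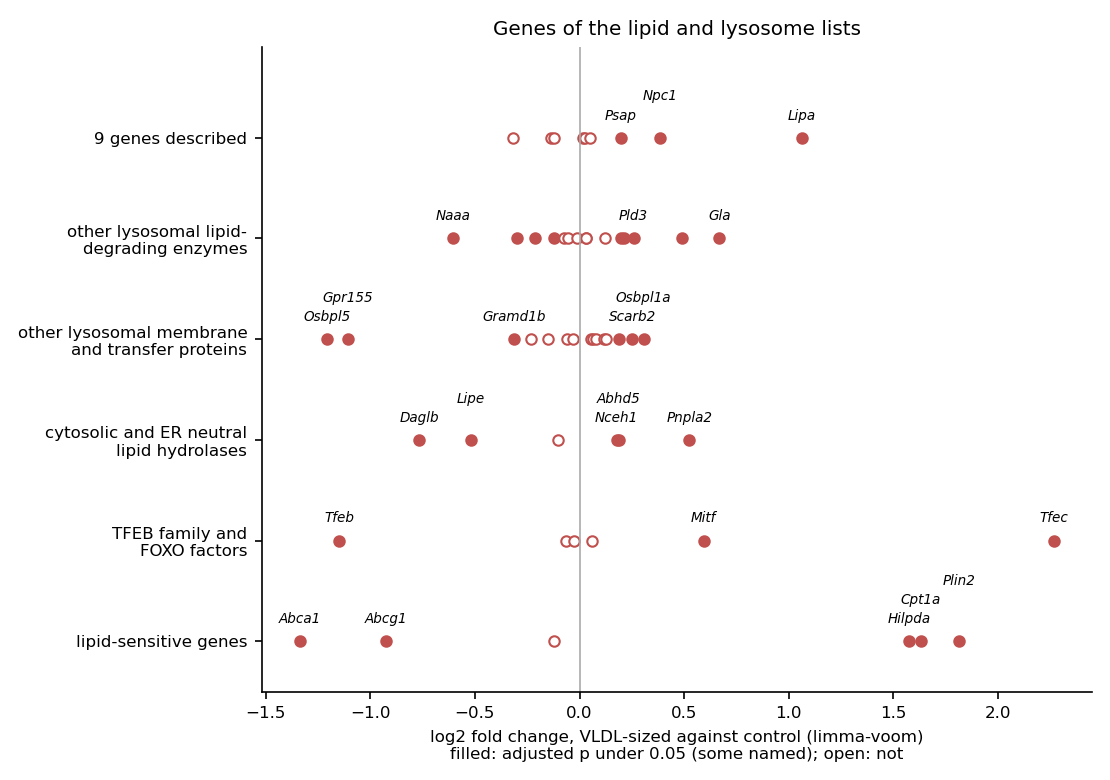
Log2 fold change after VLDL-sized particles against control (horizontal axis, limma-voom) for the 9 genes and 5 other lists, 1 point per gene, filled where the adjusted p was under 0.05 and with some of these genes named. In this fit each list but that of the 9 genes holds both higher and lower genes among those that passed. Among the 9, *Pla2g15* just missed the threshold (adjusted p = 0.0509, limma-voom) and passed as lower under 9 of the 21 alternatives. *Tfeb* at -1.15 and *Tfec* at 2.27 lie at opposite ends of their family.

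Under other scalings no gene of these 5 lists that passed in both fits changed its direction. With library size as the only scaling, 2 of the other lysosomal enzymes were higher and 4 lower after VLDL-sized particles, and *Pld3* did not pass. The macrophage markers fell in part beside these results: 1 was higher and 5 were lower after VLDL-sized particles, *Fcgr1* the most at -0.83 on the log2 scale. That is 75% of the markers beside 35.6% of all genes. After CHYL-sized particles 0 were higher and 2 lower, or 25% beside 25.7% of all genes, which is near the background. With library size as the only scaling 0 were higher and 6 lower in both comparisons, where 38.1% of all genes passed with VLDL-sized particles. The part of this in the other values was not tested.

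The genes whose course over the 9 libraries was most like that of *Lipa* were *G6pdx*, *Afp*, *Psmd5*, *Por* and *Tbcel*, by the root mean square difference of centred log2 cpm among 10587 genes with a mean of at least 50 counts. The difference was 0.0522 for *G6pdx*, the first enzyme of the pentose phosphate pathway, and 0.0704 for *Tbcel*. *G6pdx* was at 342, 355 and 385 cpm in the control libraries, 755, 757 and 751 cpm after VLDL-sized and 748, 768 and 773 cpm after CHYL-sized particles. *Afp*, alpha-fetoprotein, was at 10.1 to 11.9 cpm in control and 20.1 to 22.7 cpm in the treated libraries. *Psmd5*, a proteasome assembly factor, and *Por*, the electron donor of cytochrome P450 enzymes, had log2 fold changes of 1.11 and 1.03 with VLDL-sized and 1.06 and 0.94 with CHYL-sized particles.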

How the data were processed

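RNAseq was measured in 9 libraries of RAW 264.7 cells, grouped by the sample labels. The authors quantified the reads with Salmon 0.14.1 (submitters' processing notes) against GENCODE transcripts and deposited an estimated count per gene, summarized with tximport. In the methods the counts are scaled for length and depth; since 58.3% of the values over 10 were whole, the deposited table was taken as unscaled. Genes sharing sequence with other genes may be affected by how reads were split. Symbols were matched for 54346 of 54432 identifiers. Gene positions and transcript lengths came from the GENCODE annotation of GRCm38 one release before the authors' own, and sequences from RefSeq.

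Genes with more than 10 estimated counts in at least 3 libraries (12637) were rounded, normalized by TMM (edgeR 4.0.16) and fitted with limma-voom (limma 3.58.1, R 4.3.3) over all 9 libraries without a block, with Benjamini-Hochberg adjustment and a threshold of 0.05. Given cpm are TMM-normalized, except the summed cpm of the macrophage markers, which were scaled by library size alone. Depth was 22393893 to 22856792 counts, and p-values measure the spread between pooled libraries. Steps were tested on simulated data. Ratios were tested by exact permutation (SciPy 1.17.1). The 9 genes, the lists, motifs and tests were chosen with earlier results of these data known. Named were the 9 genes, up to 5 list genes per list with an adjusted p under 0.05 and the largest change after VLDL-sized particles, and the 5 genes most like Lipa; single untested or uncalled list genes were named after their values were seen. Some genes that this rule names are not reported here.

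Same-numbered VLDL-sized and control libraries deviated together from their group means (correlations 0.138, 0.131 and 0.291 across genes). The VLDL-sized library of replicate 2 correlated almost as well with the control library of replicate 1 (0.114). These values thus set replicate 3 apart more clearly than they pair replicates 1 and 2. No label says that a number marks a shared experiment. For same-numbered CHYL-sized and control libraries the correlations were 0.124, 0.0694 and 0.337, not all over 0.1. The CHYL-sized library of replicate 2 had 0.154 with the control library of replicate 1. The block is therefore given with the alternatives. Alternatives were DESeq2 1.42.0, the quasi-likelihood test of edgeR, limma-trend, upper-quartile scaling or library size alone, no filter, a stricter filter (50 counts), only the groups compared, the block, and libraries or replicate numbers left out.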

Additional observations from a re-analysis of the deposited data

How the results depend on the processing

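RNA quality values were not used here. *Lipa* kept its direction and passed against control under all 21 alternatives, and *Npc1* under 21 and 19. With library size as the only scaling 5 of the 9 passed in place of 3 after VLDL-sized particles, beside 38.1% of all genes. Of these 5, *Lipa* and *Npc1* were higher and *Stard3*, *Pla2g15* and *Smpd1* lower, while *Psap* did not pass. The log2 values of *Npc2*, *Asah1* and *Gm2a* turned to -0.0669, -0.0761 and -0.0430. With the replicate number as a block 5 passed after VLDL-sized particles, *Stard3* and *Pla2g15* as lower, beside 47.9% of all genes. That block gave 4948 in place of 3251 genes for CHYL-sized particles, with *Pla2g15* lower (adjusted p = 0.0078) and no other of the 9 genes changing its call, and 147 genes between the particles, where DESeq2 gave 24. Against the median of the other 8 genes in place of their mean, the log2 ratio of *Lipa* gained 0.8467, 0.8458 and, for both particles, 0.8462. With the median transcript length, 4 genes kept their place by level. Why these settings moved the values was not tested.

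Leaving out 1 library or 1 replicate number gave 2252 to 5389 genes after VLDL-sized particles (the fewest without replicate 1 and 2270 without replicate 2), 1204 to 4154 after CHYL-sized particles (1300 without replicate 2), and 0 to 232 between the particles (the most without replicate 3). After CHYL-sized particles 1 to 4 of the 9 genes passed, with *Lipa* alone without replicate 1 or 2. These fits have fewer libraries. Genes near 0 changed sign. After VLDL-sized particles *Npc2* ranged from -0.0296 to 0.0619, *Asah1* from -0.0268 to 0.0637 and *Gm2a* from -0.0333 to 0.1419 on the log2 scale. After CHYL-sized particles *Npc2* ranged from -0.0617 to 0.0298, *Smpd1* from -0.1250 to 0.0337, *Asah1* from -0.0492 to 0.0414 and *Gm2a* from -0.1110 to 0.0673. Between the particles *Pla2g15* ranged from -0.1026 to 0.0009, *Smpd1* from -0.1391 to 0.0130, *Asah1* from -0.0155 to 0.0556, *Psap* from -0.0194 to 0.0657 and *Gm2a* from -0.0174 to 0.1695.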
